A study of Mus musculus with 4 samples.

Results

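The 10 genes described here encode the histone methyltransferase subunits Ezh1, Ezh2, Eed and Suz12, the DNA methyltransferases Dnmt1, Dnmt3a and Dnmt3b, the methylation cofactor Uhrf1, and the dioxygenases Tet2 and Tet3. They were chosen by name for what their proteins do, from the 30041 genes that carry a score in each sample, and all 10 were found. A gene was tested where 1 or more samples reached a score of 0.005, which kept 9 of the 10 and 9727 of all genes, and left out Dnmt3b. RNA was sequenced from splenic B cells of C57BL/6 mice after 72 h of culture with lipopolysaccharide (LPS), which drives B cells into division and towards antibody secretion. The control cells came from Nfkbiz fl/Δ mice and the conditional knockout (cKO) cells from Nfkbiz fl/Δ Mb1cre/+ mice, with 2 samples in each group. Both groups therefore carried 1 deleted (Δ) copy of Nfkbiz, which encodes the nuclear IκB protein IκB-ζ. The other, loxP-flanked copy was exposed to Cre only in the cKO, where Cre is driven by the Mb1 (Cd79a) promoter of B lineage cells. The groups thus differed in the Mb1cre allele, which brings Cre, as well as in Nfkbiz. No group carried that allele without the loxP-flanked copy, so the effects of the allele and of Nfkbiz loss cannot be told apart. The mice's ages are not given in the sources used here.

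These proteins write, copy or remove silencing marks on chromatin. Polycomb repressive complex 2 (PRC2) places methyl groups on lysine 27 of histone H3 through its catalytic subunit, Ezh2 or Ezh1, and needs Eed and Suz12 for activity. Ezh2 is typical of dividing cells such as germinal centre B cells, and Ezh1 of resting cells. After DNA replication Uhrf1 binds hemimethylated CpG sites and brings in Dnmt1, which copies the methylation to the new strand. Dnmt3a and Dnmt3b methylate sites that carried no mark, and TET enzymes oxidize methylcytosine on the way to its removal.

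The level is a score per gene with no stated unit. Low scores multiplied by exon length fell near whole multiples of 1 step per sample, as reads per exon length and library size would, so scores of different genes were compared as levels per length. The depth inferred from that step was 17500000 to 19900000 reads per sample, and is an estimate from the values. The score of Nfkbiz was 0.02409 and 0.02264 in the control and 0.0127 and 0.01156 in the cKO, a log2 fold change of -0.94 (SE 0.096, limma adjusted p = 0.0282). All 10 B cell markers passed the filter, with summed scores of 2.94 to 3.40. Of these 2 were called lower in the cKO, beside 1.25% of all genes tested. They were Cd79a, whose promoter drives Cre, and Fcer2a, the low-affinity IgE receptor CD23 (log2 fold change -0.78 for each, limma adjusted p = 0.0294 and 0.0428). The part of the Mb1cre allele in the Cd79a score was not tested. Of the 15 T and NK cell markers 1 passed, with sums of 0.0122 to 0.0181. Of the 14 myeloid markers 4 passed and 0 were called, with sums of 0.201 and 0.221 in the control and 0.232 and 0.246 in the cKO. Itgam made most of that sum, and Lyz2, the lysozyme of macrophages, was scored at 0.02052 and 0.01124 in the control and 0.04852 and 0.03292 in the cKO (log2 fold change 1.39, limma adjusted p = 0.0961). Cd68 had a log2 fold change of 0.75 (adjusted p = 0.225). The 8 erythroid markers summed to 0.0135 in control 1 and to 0.00229 to 0.00263 in the other samples. The part of other cells in the results was not tested.

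None of the 9 tested genes passed an adjusted p of 0.05 in limma, where 1.25% of the 9727 genes were called lower and 0.812% higher in the cKO. At an unadjusted p under 0.05, Uhrf1 was lower and Tet3 and Ezh1 were higher, against 11.5% lower and 10.8% higher among all genes. Both cKO samples lay below both control samples for Suz12, Dnmt1 and Uhrf1, and above them for Ezh1, Tet2 and Tet3. That is 3 of 9 in each direction, near the 30.1% of all genes that lay below and the 28.1% that lay above. The median log2 fold change of the 9 genes was 0.015, beside -0.0098 for all genes tested. In bulk RNA, fewer cells of a type and less RNA per cell cannot be told apart.

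**Figure D1:**
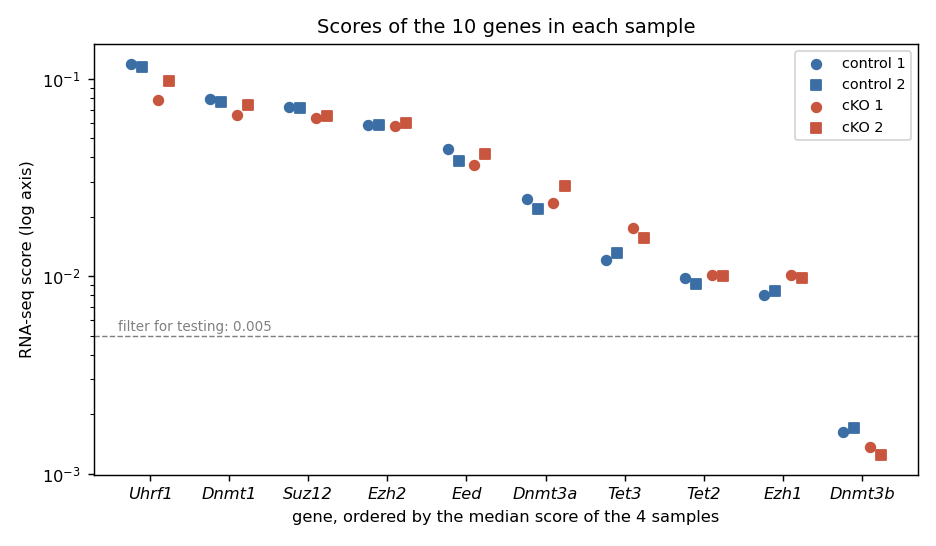
Deposited score (per exon length as inferred, log axis) of each of the 10 genes in the 2 control and 2 cKO samples, 1 point per sample. Uhrf1 stood highest, at 0.07847 to 0.11967, and Dnmt3b lowest, at 0.00124 to 0.00171.

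**Figure D2:**
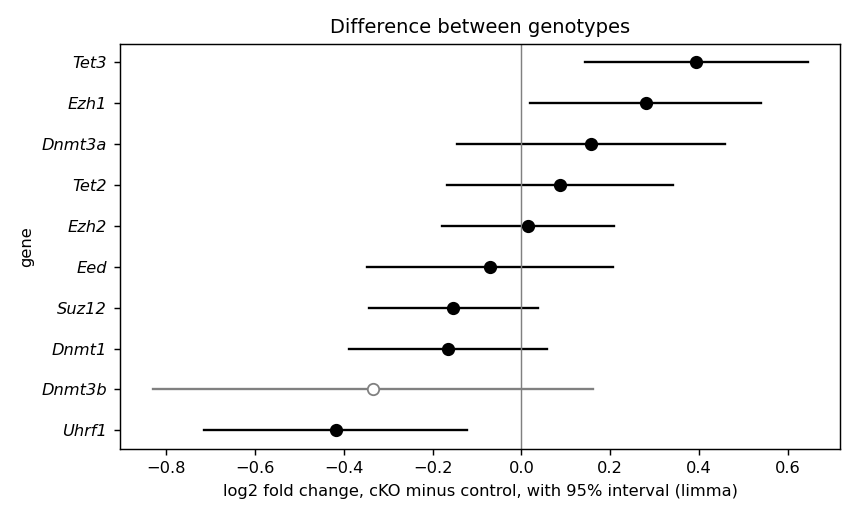
Log2 fold change (cKO minus control) with its 95% interval for each gene, from limma on log2(score + 0.0001), with Dnmt3b taken from the fit without a filter. The intervals of Uhrf1 (-0.72 to -0.12), Ezh1 (0.02 to 0.54) and Tet3 (0.14 to 0.65) leave out 0, before adjustment over all genes.

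The members' start regions were read for a motif bound by E2F, the factors of S phase entry. A RefSeq window of 250 bases before to 50 bases after a start site (GRCm38.p6) was read for the letters TTTCCCGC and TTTGGCGC on both strands. The 10 genes had 15 windows, and 3 of them, 1 each in Dnmt1, Ezh2 and Suz12, held a match. Among all windows 514 of 32851 (1.56%) held one. By gene, 1.8% of the 27025 genes with a window held a match. Of 21 S phase genes 16 had a window and 6 held a match, and of 14 mitotic genes 13 had a window and 0 held one. S phase genes without a window were not read, so the 6 is a count and not a share. The 60 bases around each of the members' matches are shown so that the matched members can be read beside their scores. They run 5′ to 3′ on the gene's strand, with the matched letters in capitals.
Dnmt1, chr9:20952574-20952633, minus strand: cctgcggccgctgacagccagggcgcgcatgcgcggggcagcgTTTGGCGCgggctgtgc
Ezh2, chr6:47594994-47595053, minus strand: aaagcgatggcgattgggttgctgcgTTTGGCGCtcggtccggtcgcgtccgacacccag
Suz12, chr11:79992861-79992920, plus strand: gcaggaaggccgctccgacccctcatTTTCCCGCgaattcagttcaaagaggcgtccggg
The match began at base 34 after the start site in Dnmt1 and at base 4 in Ezh2, and 219 bases before it in Suz12. No match in a window says only that these letters are not in it. The members' windows held 2 to 57 CpG dinucleotides, the sites that DNA methyltransferases act on, where the median of all windows was 7. Their GC content was 51.3 to 82.3%, where the median of all windows was 52.7%. Each motif holds a CpG, so the shares over all windows and genes come from sequence of unlike base content. Windows of like base content were not compared.

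Ezh2, the catalytic subunit of PRC2 in dividing cells (mm9 chr6:47480273-47545340, minus strand), had scores of 0.05814 and 0.05872 in the control and 0.05804 and 0.06007 in the cKO. The groups overlapped, and the means were 0.0584 ± 0.00041 (SD, n = 2) and 0.0591 ± 0.0014. The log2 fold change was 0.015 (SE 0.0786, limma adjusted p = 0.925), and its 95% interval of -0.18 to 0.21 corresponds to 0.884-fold to 1.16-fold. Ezh1, the catalytic subunit more typical of resting cells (mm9 chr11:101052429-101087777, minus strand), was scored at 0.008 and 0.00841 in the control and 0.0102 and 0.00977 in the cKO. Both cKO samples were higher, with a change of 21.7% in the mean and a log2 fold change of 0.28 (SE 0.106, limma adjusted p = 0.207). Ezh2 exceeded Ezh1 by 7.27-fold and 6.98-fold in the control samples and by 5.69-fold and 6.15-fold in the cKO samples. Ezh1 thus made 12.1% and 12.5% of the summed Ezh1 and Ezh2 score in the control and 14.9% and 14.0% in the cKO.

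Eed, the subunit that binds methylated lysine 27 (mm9 chr7:97103166-97129493, minus strand), had scores of 0.0441 and 0.03822 in the control and 0.03671 and 0.04163 in the cKO. Its groups overlapped, and its log2 fold change was -0.07 (95% interval -0.35 to 0.21, limma adjusted p = 0.733). Suz12, the scaffold subunit of PRC2 (mm9 chr11:79806608-79847625, plus strand), was scored at 0.07203 and 0.07109 in the control and 0.06364 and 0.06503 in the cKO. Both cKO samples lay lower, with a change of -10.1% in the mean, and the log2 fold change of -0.15 (SE 0.0774) did not pass the test (limma adjusted p = 0.302). The ratio of Ezh2 to Suz12 was 0.807 and 0.826 in the control and 0.912 and 0.924 in the cKO, without overlap. The ratio of Ezh2 to Eed, at 1.32 and 1.54 against 1.58 and 1.44, overlapped.

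Uhrf1, which brings Dnmt1 to hemimethylated DNA (mm9 chr17:56442744-56462909, plus strand), had the largest score of the 10 in every sample. Its scores were 0.11967 and 0.11434 in the control and 0.07847 and 0.09751 in the cKO. Both cKO samples lay below both controls, and the cKO samples stood farther apart (0.0880 ± 0.013, SD, n = 2) than the controls (0.117 ± 0.0038). The log2 fold change was -0.42 (SE 0.120), or 0.748-fold with a 95% interval of 0.609 to 0.918, with a limma adjusted p of 0.138. Without cKO 1 the log2 fold change was -0.26, and without cKO 2 it was -0.58. Dnmt1, the methyltransferase that copies CpG methylation (mm9 chr9:20711650-20757317, minus strand), was scored at 0.07896 and 0.07687 in the control and 0.0657 and 0.07348 in the cKO. Both cKO samples were lower, with a change of -10.7% in the mean and a log2 fold change of -0.16 (95% interval -0.39 to 0.06, limma adjusted p = 0.334). Without cKO 1 this log2 fold change was -0.08, and without cKO 2 it was -0.25. The ratio of Dnmt1 to Uhrf1 was 0.660 and 0.672 in the control and 0.837 and 0.754 in the cKO.

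Uhrf1 and Dnmt1 are transcribed mainly in cycling cells, and the scores of cell cycle genes were also lower in the cKO samples. Among 21 S phase genes, such as the replicative helicase subunit Mcm4 and DNA ligase Lig1, 0 were called at an adjusted p of 0.05, 9 were lower at an unadjusted p under 0.05 (11.5% of all genes), and all 21 had a log2 fold change below 0 (51.8% of all genes). Their median was -0.28, from -0.48 to -0.08, and -0.13 without cKO 1. Their summed score was 1.20 and 1.13 in the control and 0.891 and 1.04 in the cKO, so that cKO 1 was lowest there as it was for Uhrf1 and Dnmt1. The 14 mitotic genes, with a median of -0.29, likewise had 0 called, 8 lower at an unadjusted p under 0.05, and sums of 0.865 and 0.818 against 0.654 and 0.743. Uhrf1 divided by the summed S phase score was 0.0995 and 0.102 in the control and 0.0881 and 0.0933 in the cKO. The part of the cell cycle in the scores of Uhrf1 and Dnmt1 was not tested.

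Dnmt3a, a de novo methyltransferase (mm9 chr12:3806007-3914443, plus strand), had scores of 0.0245 and 0.02203 in the control and 0.02353 and 0.02855 in the cKO. Its groups overlapped, and its log2 fold change was 0.16 (95% interval -0.15 to 0.46, limma adjusted p = 0.477). That value was 0.02 without cKO 2 and 0.30 without cKO 1. Dnmt3b, its paralog (mm9 chr2:153475186-153513466, plus strand), was scored at 0.00162 and 0.00171 in the control and 0.00136 and 0.00124 in the cKO. Both cKO scores were lower, but they rest on an estimated 94 to 135 reads per sample, where counting alone gives an error of up to 10.3%. In a fit without the filter the log2 fold change of Dnmt3b was -0.34 (95% interval -0.83 to 0.16, limma adjusted p = 0.462). Dnmt3a made 23.3% and 21.9% of the summed score of the 3 methyltransferases in the control and 26.0% and 27.6% in the cKO, where Dnmt1 made 75.1% and 76.4% against 72.5% and 71.2%. Dnmt3b made 1.20% to 1.70% in the 4 samples. Dnmt3l, the catalytically inactive cofactor of germ cells, was scored at 0.00007, 0.00052, 0.00071 and 0.00022 in control 1, control 2, cKO 1 and cKO 2, an estimated 2 to 26 reads, too few for a comparison.

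Tet3 (mm9 chr6:83312367-83391672, minus strand) had scores of 0.01214 and 0.01308 in the control and 0.01752 and 0.01572 in the cKO. Both cKO samples lay above both controls, by 31.8% in the mean. The log2 fold change was 0.39 (SE 0.102), or 1.31-fold with a 95% interval of 1.10 to 1.56, with a limma adjusted p of 0.118. Tet2, mutated in human blood and lymphoid malignancies (mm9 chr3:133126643-133207354, minus strand), was scored at 0.00983 and 0.00911 in the control and 0.01013 and 0.00998 in the cKO. The cKO samples were higher by a margin within the error of the fit, with a log2 fold change of 0.09 (95% interval -0.17 to 0.34, limma adjusted p = 0.644), and of 0.03 without control 2. Tet1, the family member typical of pluripotent and germ cells, was below the filter at 0.00035 and 0.00039 in the control and 0.00016 and 0.00023 in the cKO, an estimated 46 to 103 reads. Its log2 fold change without the filter was -0.68 (limma adjusted p = 0.343). The summed score of the 3 TET genes was 0.0223 and 0.0226 in the control and 0.0278 and 0.0259 in the cKO, and the ratio of Tet3 to Tet2 was 1.23 and 1.44 against 1.73 and 1.58.

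**Figure D3:**
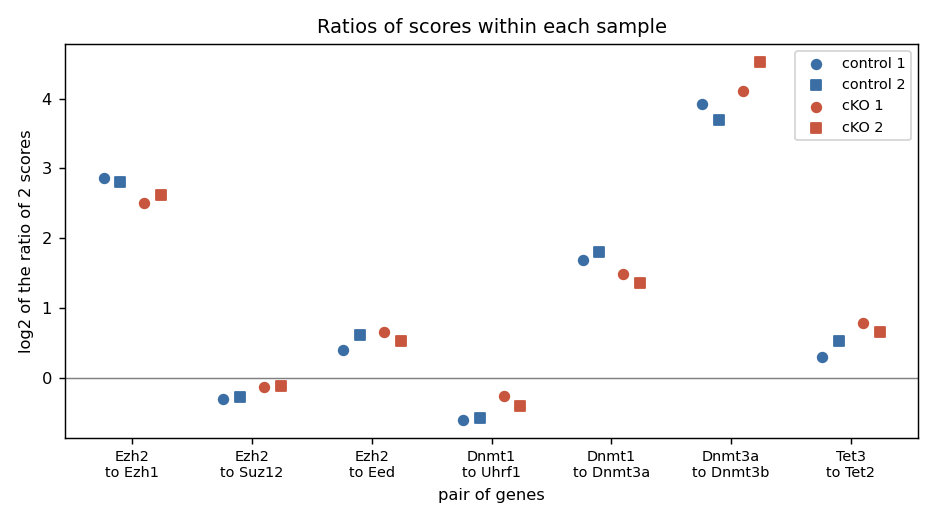
Ratios of scores per length between paired members, with 1 point for each of the 2 control and 2 cKO samples (log axis). The ratio of Ezh2 to Ezh1 lay between 6.98 and 7.27 in the control and 5.69 and 6.15 in the cKO, and that of Dnmt1 to Uhrf1 between 0.660 and 0.672 and between 0.754 and 0.837.

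Ordered by median score per length, the genes ran Uhrf1, Dnmt1, Suz12, Ezh2, Eed, Dnmt3a, Tet3, Tet2, Ezh1 and Dnmt3b. The scores of Uhrf1 and Dnmt1, of Dnmt1 and Suz12, and of Tet2 and Ezh1 overlapped across the samples. Within a sample, the first of each pair was higher in 4 of 4 samples for Uhrf1 over Dnmt1 and for Dnmt1 over Suz12, and in 3 of 4 for Tet2 over Ezh1. The maintenance pair and the PRC2 core other than Ezh1 thus stood above the de novo and TET enzymes. The estimated reads behind a score were 5600 to 7660 for Uhrf1, 2752 to 3063 for Ezh2, 2363 to 3802 for Tet3 and 601 to 854 for Ezh1, so that Dnmt3b was the least well measured of the 10.

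The other genes of these pathways were read as lists. Of 8 PRC2 partners 0 were called, with a median log2 fold change of 0.11 (-0.02 with a filter above 0.05, which kept fewer of them). At an unadjusted p under 0.05, 2 were higher and 0 lower, where 10.8% of all genes were higher and 11.5% lower. The partners ran from -0.19 for Phf19 to 0.38 for Phf1, and Jarid2, which recruits PRC2, had the smallest adjusted p (0.115). Of 22 subunits of PRC1, the complex that ubiquitinates histone H2A, 18 were tested and 0 were called. At an unadjusted p under 0.05 there were 2 below and 3 above the control (11.5% and 10.8% of all genes). Their median log2 fold change was 0.04, from -0.92 for the chromobox subunit Cbx6 to 0.48 for Kdm2b, which binds unmethylated CpG islands. That median was -0.02 without cKO 1, and 0.45 with a filter above 0.05, which kept fewer of them. Of 6 enzymes and cofactors that remove lysine 27 methylation or H2A ubiquitin, 0 were called, and the median log2 fold change was 0.08. The median was 0.01 without cKO 1 and 0.15 without cKO 2. At an unadjusted p under 0.05, 1 was higher and 0 lower (10.8% and 11.5% of all genes). Among these 6 genes the demethylase Kdm6b was scored at 0.00671 and 0.00796 in the control and 0.01004 and 0.01006 in the cKO. Its log2 fold change was 0.45 (SE 0.127, limma adjusted p = 0.131). Its paralog Kdm6a, at 0.01424 and 0.01434 against 0.01653 and 0.01545, had a log2 fold change of 0.16 (limma adjusted p = 0.340).

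Of 14 DNA methylation partners 12 were tested and 0 were called, with a median log2 fold change of -0.0062. That median was -0.06 without control 1 and also with a filter above 0.05. At an unadjusted p under 0.05 there were 2 below and 1 above the control (11.5% and 10.8% of all genes). The values ran from -0.53 for Cdca7, which acts with the remodeller Hells, to 0.33 for the methyl-CpG binding protein Zbtb38. Uhrf2, the paralog of Uhrf1, had scores of 0.01589 and 0.01817 in the control and 0.01684 and 0.01722 in the cKO, which overlapped, with a log2 fold change of 0.0031 (limma adjusted p = 0.988). Of 13 DNA demethylation partners 9 were tested and 0 were called. At an unadjusted p under 0.05 there was 1 on each side (11.5% of all genes lower and 10.8% higher). Their log2 fold changes ran from -0.53 for Idh1, which makes the cosubstrate of TET enzymes, to 0.64 for Cxxc5, around a median of -0.15. That median was -0.05 without control 1, -0.09 without control 2 and -0.23 without cKO 2, and 0.20 with a filter above 0.05.

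**Figure D4:**
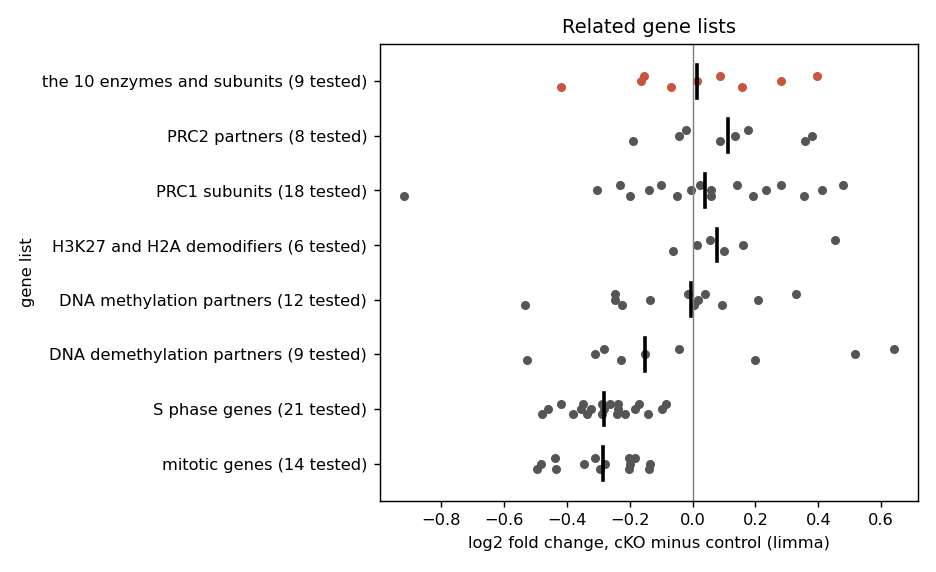
Log2 fold change (cKO minus control, limma on log2(score + 0.0001)) of the tested genes of each list, 1 point per gene, with the list's median. All 21 S phase and all 14 mitotic genes lie below 0, whereas the lists of PRC2, PRC1 and DNA methylation genes lie on both sides of 0.

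Genes that these marks are known to silence were also read. Of 20 Polycomb repressed genes 16 were below the filter and 7 were scored 0 in every sample, where 67.6% of all genes were below it and 28.2% were scored 0 in every sample. The 14 developmental regulators among them (Hox, Gata, Pax6 and Sox1) had a largest score of 0.00188, in Hoxb4, and summed to 0.00266 and 0.00245 in the control and 0.00238 and 0.00275 in the cKO. Of 15 germline genes silenced by DNA methylation 0 passed the filter, 7 were scored 0 in every sample, and the largest score was 0.00089. Their sums were 0.0019 and 0.00062 in the control and 0.00071 and 0.00075 in the cKO.

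Of the 4 Polycomb repressed genes tested, 2 were called lower in the cKO (1.25% of all genes tested). A log2 fold change below 0 was seen in 3 (51.8% of all genes tested). The 2 called genes are also in the paper's own list of genes lower in the cKO, made from these same samples, so their count is not independent. Cdkn2a, the cell cycle inhibitor locus silenced by PRC2 in growing cells, was scored at 0.04074 and 0.02131 in the control and 0.00431 and 0.00526 in the cKO, a log2 fold change of -2.60 (SE 0.299, limma adjusted p = 0.0294). Prdm1, which encodes the plasma cell regulator Blimp-1, was scored at 0.00835 and 0.00458 in the control and 0.00083 and 0.00075 in the cKO, a log2 fold change of -2.82 (SE 0.432, limma adjusted p = 0.0429). The score of Prdm1 passed the filter through control 1 alone, and that of Cdkn2a through both control samples and cKO 2. Cdkn1a had a log2 fold change of -0.60 (limma adjusted p = 0.175) and Irf4 one of 0.15 (adjusted p = 0.349). Of 9 plasma cell markers 8 were tested, with 4 on each side of 0. The 3 called lower (1.25% of all genes tested) were Prdm1 itself, Derl3 (log2 fold change -1.88, limma adjusted p = 0.0485) and Creld2 (-0.80, adjusted p = 0.0345). Of these, Derl3 passed the filter through the control samples alone. Derl3, like Prdm1, is in the paper's list from these same samples, so this count is not independent either. Sdc1, the surface marker CD138, was scored at 0.00398 and 0.00418 in the control and 0.00814 and 0.00604 in the cKO (log2 fold change 0.77, limma adjusted p = 0.116). Sdc1 passed the filter through the cKO samples alone. By flow cytometry, which reads surface protein and not RNA, the paper found less CD138 on cKO cells after LPS. The list's summed scores were 0.596 and 0.497 in the control and 0.549 and 0.484 in the cKO. The part of cell type composition in the values of Cdkn2a and Prdm1 was not tested.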

How the data were processed

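Reads of poly(A) RNA were mapped by the authors to mm9 with TopHat, after base quality filtering, and rRNA and tRNA reads were removed. CASAVA 1.8, Bowtie, TopHat2 2.0, SAMtools and bedtools are named in the submitters' processing notes. The deposited value is a score per gene, and how it was made from mapped reads is not given in the sources used here. The LPS concentration is given in mg/ml in the labels and in μg/ml in the paper's methods, and is not printed.

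Scores were tested as log2(score + 0.0001) with limma 3.58.1 (lmFit, eBayes with trend) in R 4.3.3, for the 9727 genes that reached 0.005 in 1 or more samples. P-values were adjusted by Benjamini-Hochberg over all of them, with a threshold of 0.05. Standard errors are limma's moderated ones, and intervals are unadjusted. Exact permutation of 2 against 2 samples cannot give a p below 0.33. The labels do not say whether replicates were separate mice or cultures, so p-values measure only the spread between these samples. Replicates correlated at 0.978 (control) and 0.991 (cKO) on the log2 scale and were counted separately.

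Depth was inferred from the step of low scores times exon length. Within a tolerance of 0.2 reads, 75.2 to 82.4% of them were whole, against 44.7 to 47.8% with lengths shuffled. Counting errors cover sampling of reads only. Tables and figures came from Python 3.11.15 with matplotlib 3.10.9, numpy 2.4.6, pandas 2.3.3 and scipy 1.17.1. Gene positions are from mm9 (NCBIM37, GENCODE). Promoter windows are from RefSeq on GRCm38.p6.

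The members and lists were chosen with earlier results of these data known. Named genes are the 10 members, Nfkbiz, called genes of each list, and Tet1, Kdm6a, Kdm6b, Uhrf2 and Dnmt3l. Of the cell type markers, Lyz2, Itgam, Cd68 and Sdc1 were named after their values were seen. The genes at the ends of a list's range or with its smallest adjusted p, the other tested Polycomb repressed genes, and the examples Mcm4, Lig1 and Hoxb4 were named in the same way.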

Additional observations from a re-analysis of the deposited data

How the results depend on the processing

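No member was called in any setting. The smallest adjusted p of a member over the alternatives was 0.0665 (Tet3, crossed replicate block). Of 103 member values under alternatives, 100 kept their direction and their side of the threshold. Part of that count was fixed in advance. A change of filter, variance trend or block leaves the log2 fold change itself as it was, so the direction could not turn there. Where a setting called no gene at all, no member could cross the threshold. The values that changed direction were those of Ezh2, at -0.0096 without cKO replicate 2 (0.015 in the report, leave-one-out range -0.0096 to 0.040), and Eed, at 0.032 without control replicate 1 and 0.020 without cKO replicate 1 (-0.07 in the report, range -0.17 to 0.032). The 346 list and ratio values were judged by another rule. Counts of calls were compared by fold, and medians and ratios against the spread between replicates, without regard to sign. By that rule 319 were unchanged, 14 moved, 7 became weaker and 6 stronger. The log2 ratio of Ezh2 to Eed (cKO minus control), unchanged by it, was 0.086 in the report and -0.025 without control replicate 1.

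Over all genes, 122 were called lower and 79 higher. Without a filter 0 were called either way (1538 and 1665 at an unadjusted p under 0.05 of 21582 genes), without a variance trend 22 and 11, and with a filter above 0.05, which kept 4 members, 88 and 35. Leaving out 1 sample gave 0 to 391 lower and 0 to 439 higher. The counts were 161 and 136 without control 1, 391 and 439 without control 2, and 0 without either cKO sample. The Nfkbiz call was lost without a filter (adjusted p 0.203), without a trend (0.0509), without cKO 1 (0.13) and without cKO 2 (0.0885). The calls of Cdkn2a and Prdm1 were both lost without a filter or a trend and without either cKO sample, and with the filter above 0.05 neither was tested. That of Prdm1 was also lost with quantile normalization (adjusted p 0.0525) and without control 1 (0.0848), and Cdkn1a was called without control 2 (0.0251). The causes of these changes were not tested.

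Same-numbered samples did not deviate together (correlation -0.145), so the numbers were not used as pairs. The replicate block gave 180 lower and 177 higher with no member called (smallest adjusted p 0.152). The crossed replicate block, chosen after seeing the data, gave 230 and 212.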
